A study of Mus musculus with 2 samples.

Results

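Transcripts of 9 T cell receptor genes were followed in natural killer (NK) cells: the CD3 chain genes Cd3d, Cd3e and Cd3g and the receptor constant region genes Trac, Trbc1, Trbc2, Tcrg-C1, Tcrg-C2 and Tcrg-C4. They were picked by gene symbol, and make 9 of the 31053 genes listed in the deposited tables. The study sorted CD27+CD11b+ NK cells from mouse spleen and asked what the prostaglandin E2 receptor EP3, the product of Ptger3, does in them. Both groups were C57BL/6 mice with floxed EP3 alleles. The control was EP3F/F, and the knockout was NKp46CreEP3F/F, in which the promoter of Ncr1, which encodes the NK cell receptor NKp46, drives Cre. Each group was 1 droplet library of 3' tags from a pool of 2 mice. The labels give no age, sex or treatment, and the floxed alleles are shared by both groups, so no wild-type level was available. With 1 library per group no test could be made, and the 95% intervals given in parentheses cover counting error only.

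The T cell receptor is a pair of chains, alpha with beta or gamma with delta, each built from a rearranged variable segment spliced to a constant region. The pair of alpha with beta reaches the cell surface only together with the CD3 gamma, delta, epsilon and zeta chains, which carry the signal into the cell. NK cells do not put a T cell receptor on their surface, but they use the zeta chain for their own receptors, and unrearranged constant regions can be transcribed without a usable variable segment. Mouse NK cells pass from CD27+CD11b- through CD27+CD11b+ to CD27-CD11b+ as they mature.

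A barcode was called an NK cell when it held at least 3 unique molecular identifiers (UMIs, 1 for each RNA molecule captured) over Ncr1, Klrb1c and Klrk1, and a T cell when it held at least 1 UMI of Cd3e and at least 2 over Cd3d, Cd3e and Trac. There were 10713 NK cells in the control library and 9597 in the knockout library, with medians of 5851 and 3876 UMIs. T cells numbered 59 and 154, and 34 and 91 of them also met the NK rule. All 9 NK markers were detected, the least common of them in 81.2% of control and 63.1% of knockout NK cells. Ncr1, Klrb1c and Klrk1 are among the 9, so their detection is in part fixed by the NK rule. The summed level of 8 macrophage markers was 31.9 and 126 counts per 1000000 UMIs (CPM). Ptger3, the targeted gene, had 16 UMIs in the control NK cells and 0 in the knockout NK cells, though the labels do not say whether the deleted part holds its 3' tags. The libraries shared 33 barcode sequences, and no doublets were removed. Because depth differed, shares of cells are given after thinning each cell to 2000 UMIs, unless called unthinned. This left out 123 control and 169 knockout NK cells.

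Of the 9 genes, the beta constant regions were held by the most NK cells. Trbc1 was found in 46.4% of control NK cells (45.4 to 47.3) and 51.6% of knockout NK cells (50.6 to 52.7), and in 78.2% and 71.6% without thinning. Trbc2 was found in 21.7% (20.9 to 22.5) and 24.0% (23.2 to 24.9). Their levels were 335 and 177 CPM in the control library and 430 and 221 CPM in the knockout library, on a scale where each tag is 1 molecule and no length correction applies. Next came the CD3 chains gamma and delta. Cd3g, the gamma chain gene, was held by 2.33% (2.05 to 2.64) and 5.76% (5.30 to 6.25) of NK cells, at 16.2 and 45.6 CPM. Cd3d, the delta chain gene, was held by 2.14% (1.88 to 2.44) and 3.13% (2.79 to 3.50), at 15.1 and 27.6 CPM. Trac, the alpha constant region, was held by 1.27% (1.07 to 1.51) and 2.02% (1.74 to 2.32), at 7.70 and 12.9 CPM.

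The other 4 genes were close to undetected in NK cells. Cd3e, the epsilon chain gene, was held by 0.170% of control NK cells (0.101 to 0.268) and 0.605% of knockout NK cells (0.458 to 0.783). The gamma constant regions Tcrg-C1, Tcrg-C2 and Tcrg-C4 lay between 0.0472% and 0.371% of cells. Their levels ran from 0.307 CPM for Tcrg-C2 in the control to 2.80 CPM for Tcrg-C4 in the knockout. The order from Trbc1 to Trbc2 and then to the CD3 chains was the same in both libraries, but in the control library the intervals of Cd3g and Cd3d overlapped, as did those of the 3 gamma regions.

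**Figure D1:**
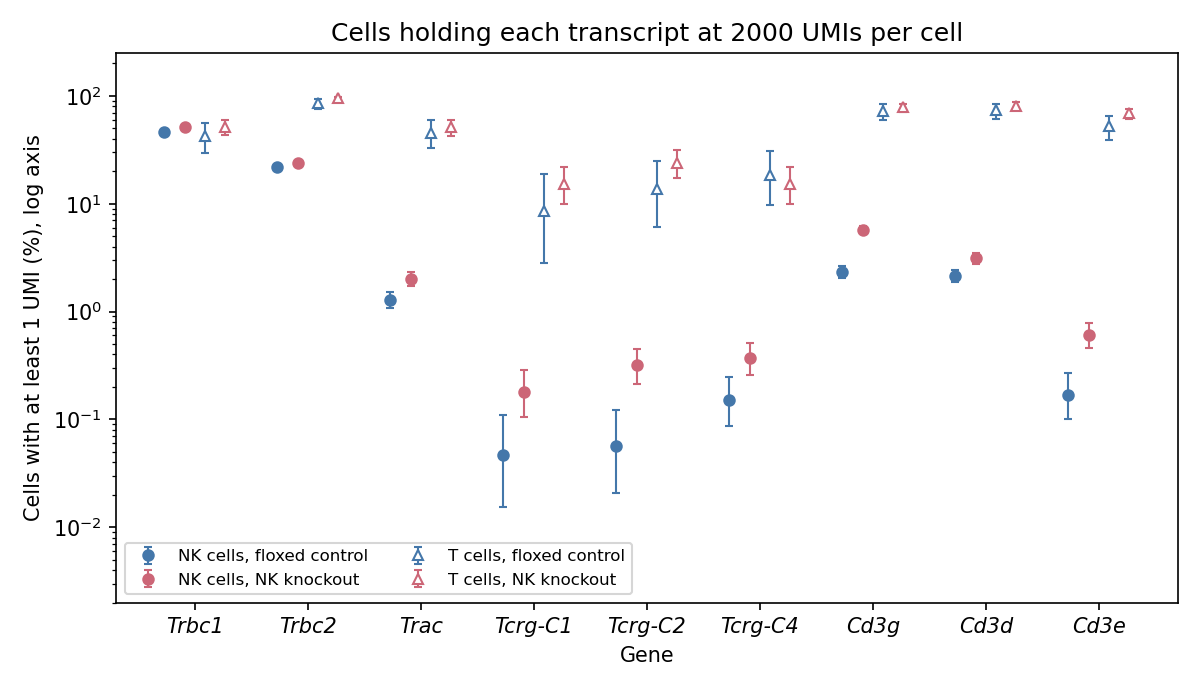
Percentage of cells with at least 1 UMI of each gene after thinning to 2000 UMIs (vertical log axis), in NK cells (filled circles) and T cells (open triangles) of the control library (blue) and the knockout library (red); bars are 95% exact binomial intervals. Trbc1 lay at a like height in NK and T cells, 46.4% and 42.4% in the control, whereas the other genes were higher in T cells. Cd3d, Cd3e and Trac chose the T cells, so their height there is a description only. The populations overlap, as 34 of 59 control and 91 of 154 knockout T cells are also among the NK cells.

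Macrophages, which should lack these transcripts, served to gauge RNA free in the suspension. They were 34 and 130 cells with medians of 1137 and 1418.5 UMIs, so they were shallower than the NK cells. Unthinned, Trbc1 was found in 5.88% (2 of 34, 0.720 to 19.7) and 4.62% (6 of 130, 1.71 to 9.78) of them. In knockout macrophages its level was 64.4 CPM, 15.0% of that in NK cells, and Trbc2 had 25.8 CPM, 11.7%. The NK markers Klre1, Klrd1, Nkg7, Gzma and Eomes had 1.99% to 5.91% of their NK level there. In control macrophages Trbc1 had 46.3 CPM, under the 69.5 CPM that 3 UMIs make, and Trbc2 had 0. Thinned to 500 UMIs per cell, a depth chosen after the data were seen, Trbc1 was held by 0 of 34 and 2 of 130 macrophages, against 14.6% and 18.3% of NK cells. For the control macrophages 0 of 34 has an upper bound of 10.3%. At that depth Trbc2 was held by 6.97% and 9.24% of NK cells, against 0 of 34 and 2 of 130 macrophages. The control interval for Trbc2 in macrophages, also up to 10.3%, therefore spans the NK share. Cd3d, Cd3e and Trac had no UMI in macrophages of either library and Cd3g had 1. Tcrg-C4 went the other way in the knockout, with 17.2 CPM in macrophages against 2.80 CPM in NK cells. That macrophage value is little above the 12.9 CPM that 3 UMIs make there, so nothing is read from it. The few macrophages could not have shown shares as low as those in NK cells.

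Trbc1 and Trbc2 differ little in the part that is translated. The deposited tables and the GENCODE annotation give them the same gene IDs, and in GRCm38 Trbc1 lies on chromosome 6 from 41538218 to 41539881 and Trbc2 from 41546730 to 41548352, both on the plus strand and 6849 bases apart. Their annotated coding sequences were 95.6% identical over 518 bases, whereas the sequences after the stop were 55.1% identical, with no identical run beyond 8 bases. The last 90 coding bases of each are shown because the 14 bases in capitals, where the genes differ, lie close to the 3' end from which these tags were read.
Trbc1: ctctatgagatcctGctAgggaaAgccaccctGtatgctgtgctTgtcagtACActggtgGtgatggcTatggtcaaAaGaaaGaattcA
Trbc2: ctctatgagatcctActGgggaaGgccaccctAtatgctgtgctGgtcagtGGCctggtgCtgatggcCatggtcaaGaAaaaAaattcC
A read wholly inside a shared stretch cannot be given to 1 of the pair, and how the authors' counting treated such reads is not given in the sources used here, so the separate levels are less certain than their sum. After the coding sequence the gamma regions Tcrg-C1 and Tcrg-C2 are harder still to separate, being 93.5% identical there, with a shared run of 104 bases. In coding sequence they are 94.6% identical, with a longest shared run of 86 bases, against 259 bases for Trbc1 and Trbc2.

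Trbc2 was held about as often by NK cells with Trbc1 as by those without it. Among NK cells that did not meet the T cell rule, 20.99% of control cells with Trbc1 also held Trbc2, against 21.98% of those without Trbc1. In the knockout library the shares were 23.5% and 23.3%, and the intervals overlapped in both libraries. Unthinned, 51.4% of control and 49.5% of knockout NK cells held Trbc1 alone, and 7.55% and 8.77% held Trbc2 alone. Among T cells, 0 of 59 and 0 of 154 held Trbc1 alone, and 44.1% and 36.4% held Trbc2 alone. Trbc1 thus made 65.9% and 67.8% of the UMIs of the pair in NK cells, against 26.5% and 32.5% in T cells.

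Trbc2 was spread over NK cells less evenly than Trbc1. Unthinned and outside the T cell rule, no Trbc2 UMI was found in 65.6% of control NK cells, a single UMI in 8.77%, and 6 or more in 5.02%. For Trbc1 the shares were 21.7%, 23.4% and 6.43%. In the knockout library 2.54% of cells had 6 or more Trbc2 UMIs. The variance of the thinned count over its mean, which is 1 when molecules fall at random, was 1.75 and 2.02 for Trbc2, against 1.13 and 1.30 for Trbc1 and a median of 1.03 and 1.04 over all measured genes. Only 8 of 1394 genes within 2-fold of the Trbc2 mean had a larger ratio in the control, and 8 of 1005 in the knockout. Cd3g (1.63 and 1.77) and Cd3d (1.26 and 1.46) were also uneven, whereas Trac (1.04 and 1.09) and Cd247 (1.03 and 1.03), the gene of the zeta chain that NK cells use, were near the median.

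**Figure D2:**
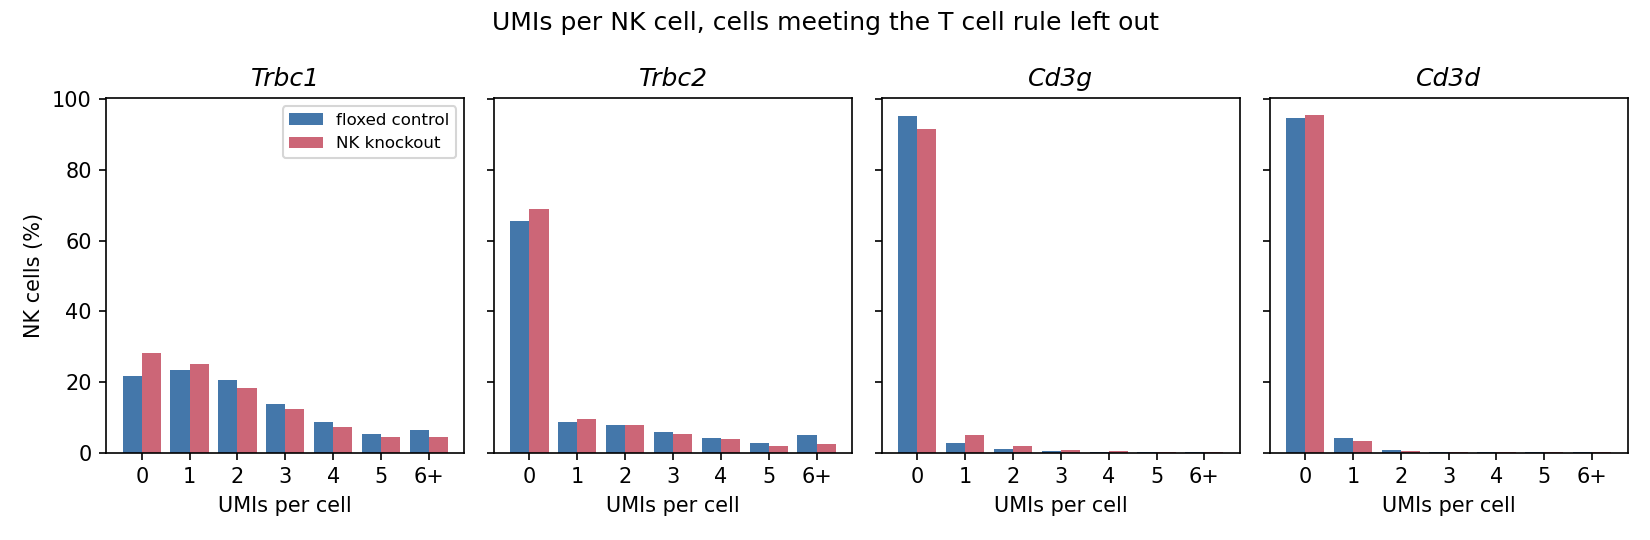
Percentage of NK cells (vertical axis) by the number of UMIs per cell of Trbc1, Trbc2, Cd3g and Cd3d (horizontal axis, the last bar for 6 or more), unthinned, with cells meeting the T cell rule left out; blue is the control and red the knockout library. For Trbc1 the control has slightly more cells at 1 UMI (23.4%) than at 0 (21.7%), whereas Trbc2 has 65.6% and 69.0% of cells at 0.

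The CD3 genes lie together on chromosome 9 of GRCm38: Cd3g from 44969572 to 44980431 on the minus strand, Cd3d from 44981786 to 44987339 on the plus strand and Cd3e from 44998740 to 45009627 on the minus strand. Cd3g and Cd3d are transcribed away from each other with 1355 bases between them, and Cd3d ends 11401 bases from Cd3e. RefSeq promoter sequences of GRCm38.p6 were matched for 3 of the 9 genes, each 250 bases before to 50 bases after the start. They are shown, 5′ to 3′ on the strand of the gene, because Cd3d and Cd3g were held by NK cells and their neighbour Cd3e seldom was. Capitals mark GGAA, the core that ETS family factors bind, or its reverse complement TTCC. They cover chr9:44981536-44981835 for Cd3d (plus strand), chr9:44980382-44980681 for Cd3g (minus strand) and chr9:45009562-45009861 for Cd3e (minus strand).
Cd3d: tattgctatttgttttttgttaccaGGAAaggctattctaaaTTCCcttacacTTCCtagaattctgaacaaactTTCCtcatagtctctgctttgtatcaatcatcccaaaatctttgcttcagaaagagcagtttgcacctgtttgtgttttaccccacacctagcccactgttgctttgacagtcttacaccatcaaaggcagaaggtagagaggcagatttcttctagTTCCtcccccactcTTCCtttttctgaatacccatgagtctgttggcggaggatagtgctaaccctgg
Cd3g: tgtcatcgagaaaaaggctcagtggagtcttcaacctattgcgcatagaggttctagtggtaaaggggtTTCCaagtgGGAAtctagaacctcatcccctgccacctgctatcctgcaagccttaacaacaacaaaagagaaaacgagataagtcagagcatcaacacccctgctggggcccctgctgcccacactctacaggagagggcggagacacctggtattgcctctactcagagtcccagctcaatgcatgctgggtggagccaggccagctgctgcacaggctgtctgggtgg
Cd3e: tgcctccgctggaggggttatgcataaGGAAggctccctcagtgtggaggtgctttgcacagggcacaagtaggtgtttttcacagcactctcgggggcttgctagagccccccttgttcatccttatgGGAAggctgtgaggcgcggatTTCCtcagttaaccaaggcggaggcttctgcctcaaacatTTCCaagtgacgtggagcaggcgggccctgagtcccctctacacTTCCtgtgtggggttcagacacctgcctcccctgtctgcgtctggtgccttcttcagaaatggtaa
GGAA on either strand was found 6 times for Cd3d, 2 times for Cd3g and 5 times for Cd3e. It is common, with 96.0% of 32851 promoters holding it at a median of 3. The E box CANNTG was found 1, 4 and 2 times (72.3% of promoters), GATA 2, 2 and 0 times (57.9%) and TGTGGT, the core bound by Runx factors, 0 times in each (16.8%). These are matches of letters and not binding sites.

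Most NK cells with Trbc1, Trbc2, Cd3g, Cd3d or Trac held no Cd3e UMI. Only 18 of 10590 control and 57 of 9428 knockout NK cells held Cd3e. A gene with many more holders is thus found mostly without it in any case, and the shares are a description. No Cd3e UMI was found in 95.1% of control NK cells with Cd3g (91.7 to 97.5) and 92.6% of knockout NK cells with Cd3g (90.1 to 94.7). For Cd3d the shares were 94.7% (90.9 to 97.2) and 86.1% (81.6 to 89.8), and for Trac 93.3% (87.7 to 96.9) and 86.3% (80.6 to 90.9). Of cells with Trbc1, 99.9% and 99.4% lacked Cd3e, and of those with Trbc2, 99.3% and 97.7%. A cell that expresses Cd3e at a low level can miss it at 2000 UMIs: only 68.9% of knockout T cells and 52.5% of control T cells kept a Cd3e UMI after thinning. The gamma regions had few holders: 1 of 5 and 7 of 17 cells with Tcrg-C1 lacked Cd3e, 3 of 6 and 11 of 30 with Tcrg-C2, and 12 of 16 and 24 of 35 with Tcrg-C4. Unthinned, the share of Cd3d holders without Cd3e was 94.6% and 82.9%.

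The few NK cells with Cd3e held the other CD3 genes far more often. Cd3e was found in 5.29% of control NK cells with Cd3d and 0.0579% of those without it, and in 13.9% and 0.175% in the knockout. Beside Cd3g the shares were 4.86% and 0.0580% in the control and 7.37% and 0.191% in the knockout. Trbc2 followed the same pattern, with Cd3e in 0.652% of holders and 0.0362% of other control NK cells, and in 2.29% and 0.0698% in the knockout. Trbc1 did not, with 0.122% against 0.211% in the control and 0.616% against 0.592% in the knockout, where the intervals overlapped. All 34 control NK cells with an unthinned Cd3e UMI met the T cell rule, as did 91 of 95 in the knockout. The rule asks for a Cd3e UMI and is met by any cell with 2 of them, so this is a description that the rule largely fixes. Whether the cells meeting both rules are T cells with NK receptors or droplets of 2 cells was not tested.

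The share of each gene's UMIs that lay in those cells differed between genes, and for Cd3d and Trac, which the T cell rule counts, it is in part set by the rule. Of the UMIs in NK cells, cells meeting the T cell rule held 17.6% for Cd3d in the control and 44.7% in the knockout. For Cd3g the shares were 12.2% and 21.9%, for Trac 15.8% and 39.5%, and for Trbc1 0.489% and 2.68%. Trbc2 had 2.48% and 10.2%. For the gamma regions such cells held 15 of 30 and 40 of 56 UMIs of Tcrg-C1, 85.7% and 86.3% of Tcrg-C2 and 26.9% and 44.3% of Tcrg-C4.

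With those cells left out, Cd3g was still held by a larger share of cells with Cd3d than of cells without it, though most cells with Cd3d lacked Cd3g. Cd3g was held by 13.2% (8.86 to 18.6) of control NK cells with Cd3d and 1.90% (1.65 to 2.19) of those without it, and by 21.9% (16.7 to 27.9) and 4.71% (4.28 to 5.16) in the knockout. No tie of either gene to Trac was detected, but few holders had Trac and the intervals were wide. Trac was held by 1.95% (0.534 to 4.92) of control cells with Cd3d and 1.13% of those without it. In the knockout the shares were 2.63% and 1.56%. Beside Cd3g they were 0.893% and 1.15% in the control and 1.88% and 1.57% in the knockout. The intervals overlapped each time. Trbc1 was held by 42.9% (36.05 to 50.01) of control NK cells with Cd3d and 46.5% (45.5 to 47.4) of those without it. In the knockout the order was the opposite, 56.1% (49.4 to 62.7) against 51.6% (50.5 to 52.6). The intervals for Trbc1 overlapped in both libraries. Trbc2 was held by 29.0% (25.0 to 33.3) of knockout cells with Cd3g against 23.1% (22.2 to 24.0), but in the control by 23.7% against 21.5% with overlapping intervals. Trbc2 was also held by 28.8% (22.7 to 35.5) of control cells with Cd3d against 21.4% (20.6 to 22.2), and in the knockout by 28.5% against 23.3% with overlapping intervals. The most UMIs in a single such cell were 17 for Cd3d and 20 for Cd3g, both in the control library.

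**Figure D3:**
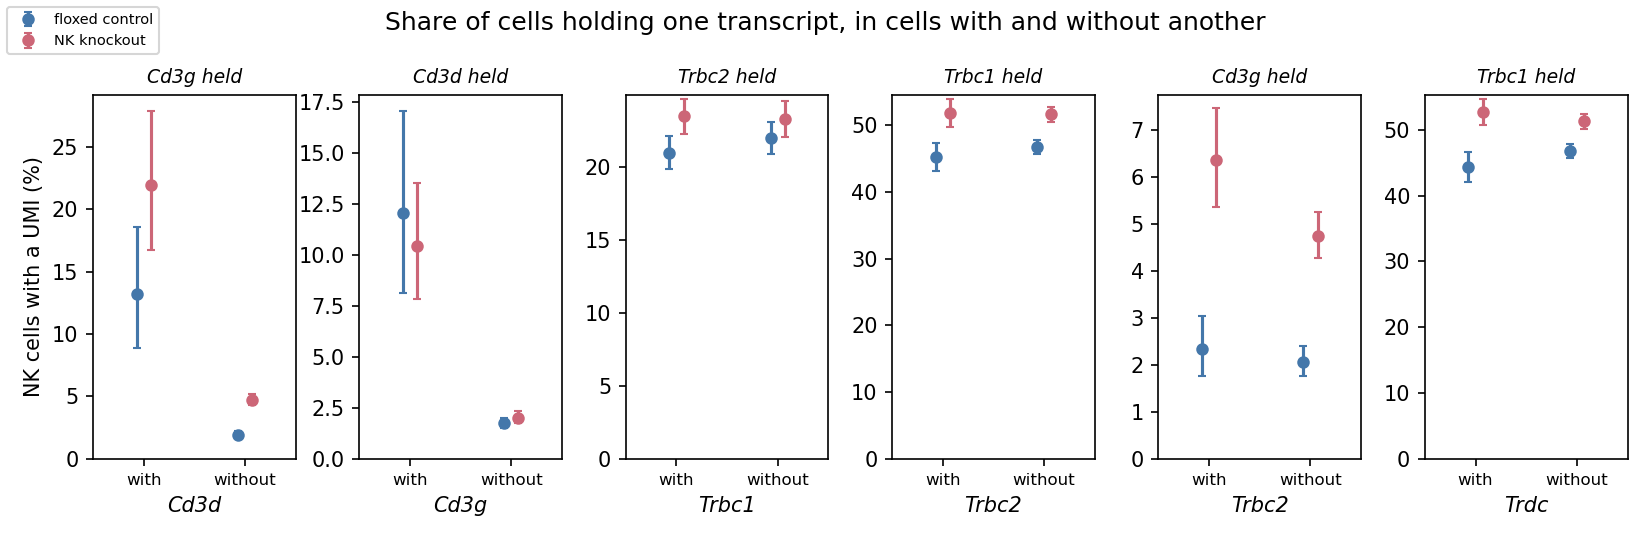
Percentage of NK cells holding the gene named above each panel (vertical axis, from 0), in cells with and without a UMI of the gene named below it, thinned to 2000 UMIs with T cell rule cells left out; blue is the control and red the knockout library, and bars are 95% exact binomial intervals. Cd3g is held by a larger share of cells with Cd3d than of those without it, whereas the intervals for Trbc1 and Trbc2 overlap whether or not the other is present.

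Genes whose presence over cells was most like each gene's were ranked by the log2 ratio of their share in holders over their share in other cells, taking the smaller of both libraries, over 4320 genes (4318 for Trac). Cd3e and the gamma regions had too few holders to enter. For Cd3d the first was Xcl1, a chemokine of less mature NK cells, held by 44.9% of Cd3d holders and 27.1% of other control NK cells (log2 ratio 0.73), and by 28.9% and 14.9% in the knockout (0.95). Ltb, which encodes lymphotoxin beta, and Socs1, an inhibitor of cytokine signalling, followed. Cd3g was led by Xcl1 (0.67 and 0.89), Plxnc1 and Cd69, an activation marker. The beta regions gave weaker likeness, Trbc1 with Gna15 (0.25 and 0.28), Ltb and H2-M3, and Trbc2 with Cd226 (0.34 and 0.41), an activating receptor, Ltb and Klrb1b. Trac was led by Slc39a7 (0.82 and 1.04), Bzw2 and Ndrg3, on 121 and 148 holders. These rankings describe sparse counts and say nothing of shared control. Xcl1 and Ltb also belong to the maturation score used next.

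Maturation was read from a score, the mean of 9 genes of mature NK cells minus the mean of 11 genes of less mature ones, none of them a receptor gene counted here, and the NK cells of each library were split by it in tertiles. The tertiles are ranges of a score and not cell types, and 25.3% and 25.1% of cells lay within 0.1 of a cut. All cells had been sorted as CD27+CD11b+, so the tertiles rank cells inside that stage. The score includes Cd27 and Itgam, the genes of the sorting markers. Cd3d and Cd3g were held by fewer of the more mature cells in both libraries. Cd3d was held by 3.46%, 1.95% and 1.02% of control NK cells from least to most mature, and by 6.08%, 2.20% and 1.11% in the knockout. Cd3g was held by 3.91%, 2.07% and 1.02%, and by 9.23%, 4.58% and 3.47%. Trbc1 differed less, with 49.9% of the least and 42.7% of the most mature cells in the control and 56.9% and 45.8% in the knockout, and Trbc2 had 24.3% and 20.1%, and 27.7% and 21.0%.

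Set against all genes, the CPM of the least mature over the most mature tertile gave log2 ratios of 2.06 (1.55 to 2.61) and 3.05 (2.56 to 3.59) for Cd3d and 1.89 (1.44 to 2.37) and 1.64 (1.37 to 1.92) for Cd3g. Those of Trbc2 were 0.41 and 0.67, those of Trbc1 0.32 and 0.50. A gene was called measured at a mean of at least 10 CPM over the 2 libraries and higher or lower where its log2 ratio reached 0.32 in either direction. By this rule 3 of the 5 measured receptor genes were higher in the least mature tertile of both libraries, Trbc1 in the control lying just under the bound, against 2.43% of 7354 measured genes, and 0 were lower, against 2.12%. In the control alone 4.73% of genes were higher and 5.72% lower, and in the knockout alone 6.46% and 6.35%. Cells meeting the T cell rule were themselves mostly in the least mature tertile. Along the tertiles they numbered 32, 2 and 0 in the control and 78, 8 and 3 in the knockout. The less mature genes of the score include Tcf7, which is also counted below as a T lineage gene. The part of the score in placing these cells was not tested. A T cell with no Cd3e UMI does not meet the rule and stays among the NK cells if it meets the NK rule. The median depth before thinning was 6253.5 and 5476.5 UMIs in the least and most mature cells of the control and 4123 and 3696.5 in the knockout.

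With T cell rule cells left out, Cd3d and Cd3g were again higher in the least mature cells, and Trac was not. The log2 ratios were 1.62 (1.09 to 2.18) and 2.13 (1.61 to 2.69) for Cd3d, and 1.60 (1.14 to 2.09) and 1.21 (0.926 to 1.497) for Cd3g. For Trac the ratio in the knockout was 0.9995 with those cells and -0.11 (-0.70 to 0.47) without them, and in the control 0.14 and -0.51 (-1.20 to 0.16), so no direction was detectable at this depth. Trbc1 had 0.32 and 0.47, and Trbc2 0.33 and 0.47. By the same rule 3 of 4 measured receptor genes were higher in the control, where 4.76% of 7350 genes were higher and 5.56% lower, and 4 of 4 in the knockout, where 6.56% were higher and 6.29% lower. The delta constant region Trdc, which is not among the 9 genes, had -0.09 and -0.19.

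**Figure D4:**
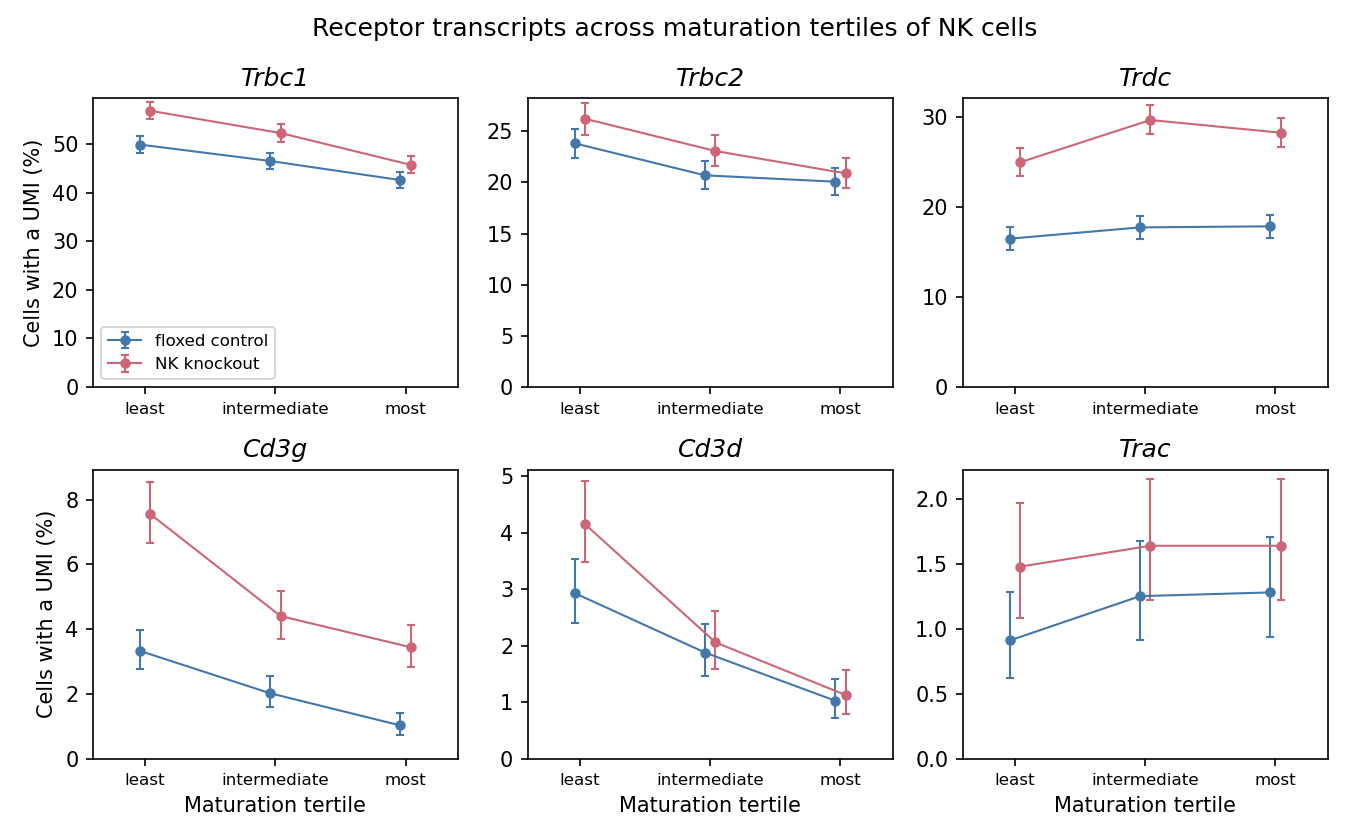
Percentage of NK cells with a UMI of each gene (vertical axes, from 0) in the least, intermediate and most mature tertile of each library's NK cells, thinned to 2000 UMIs with T cell rule cells left out; blue is the control and red the knockout library, and bars are 95% exact binomial intervals. Cd3d and Cd3g are lower from left to right, with 2.93% and 1.02% for Cd3d in the control, Trbc1 and Trbc2 differ less in proportion, and Trac and Trdc are not lower on the right.

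The measured signalling genes of the receptor pathway stayed within the bound. Of 17 such genes, 12 were measured and 0 were higher or lower in the least mature tertile of either library, where 4.73% and 6.46% of all genes were higher and 5.72% and 6.35% lower. Beside such shares 0 of 12 is not read as a result. The list had medians of -0.08 and 0.00 over those measured against -0.03 and -0.02 over all genes. Among those furthest from 0, Cd247 had -0.26 and Skap1, an adaptor of the receptor pathway, 0.18 in the control. Fcer1g, an adaptor chain of NK receptors, had -0.19 in the control and -0.28 in the knockout, where the adaptor genes Lat and Lcp2 had 0.27 and 0.22. Of 17 T lineage genes, 6 were measured and 2 were higher in each library, beside the same 4.73% and 6.46% of all genes. They were Tcf7 (2.14 and 2.63), a transcription factor that is itself in the maturation score, and Cd28 (1.04 and 1.33), a costimulatory receptor.

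Between the libraries, each of the 5 measured receptor genes was higher in the knockout NK cells. The log2 ratios were 1.49 (1.39 to 1.60) for Cd3g, 0.87 (0.75 to 0.996) for Cd3d, 0.75 (0.57 to 0.93) for Trac, 0.36 (0.33 to 0.39) for Trbc1 and 0.32 (0.29 to 0.36) for Trbc2, while 15% of 7354 measured genes were higher by the same size and 28.8% lower. The unmeasured genes were also higher, from 1.51 for Tcrg-C4 to 3.02 for Tcrg-C2, on 21 to 251 UMIs per library. Without the cells of the T cell rule, 2 of 4 measured genes were higher, Cd3g at 1.34 (1.22 to 1.46) and Trbc1 at 0.34 (0.31 to 0.37), against 14.9% of 7350 genes. Cd3d then had 0.31 (0.16 to 0.46), Trbc2 0.22 (0.18 to 0.26) and Trac 0.29 (0.07 to 0.50). T cells made up more of the knockout library. In the NK cells the macrophage markers had 31.9 and 126 CPM and 6 markers of ILC1, relatives of NK cells, 59.5 and 145 CPM. Erythroid markers had 21.8 and 101 CPM and platelet markers 9.71 and 12.1. B cell markers (116 and 91.7 CPM) and dendritic cell markers (213 and 151 CPM) were lower in the knockout. The part of these cells in the difference was not tested, and genotype, pool of mice and library cannot be told apart.

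Of the 12 measured signalling genes, 0 were higher and 3 lower in the knockout, beside 15% and 28.8% of all genes, so the count that was lower lay near the background. Their median was -0.17 against -0.06 over all genes. The lower ones were Prkcq (-0.43), which encodes the kinase PKC theta, Lcp2 (-0.40), the adaptor SLP-76, and the kinase gene Syk (-0.34). Of 6 measured T lineage genes 1 was higher, also near the background share, Trdc at 0.79 (0.74 to 0.84), from 98.5 to 171 CPM, while Tcf7 had -0.29.

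Trdc led to the variable segments, of which 175 are listed. Those next to be described were chosen after their values were seen. In NK cells outside the T cell rule, variable segments of the beta locus had 9 and 3 UMIs and those of the gamma locus 10 and 9, whereas the delta locus had 2708 and 1404 and the alpha locus 646 and 415. Nearly all came from 3 segments: Trdv4 and Trdv2-2 made 79.9% and 19.7% of delta segment UMIs in the control and 25.5% and 74.1% in the knockout, and Trav22, annotated as a pseudogene, made 99.2% and 98.8% of those of alpha. Among T cells, by contrast, the alpha UMIs came from 16 segments in each library and the beta UMIs from 9 and 10. All 3 segments lie on the plus strand of chromosome 14 in GRCm38, Trdv4 67.3 kb, Trdv2-2 181 kb and Trav22 215 kb before Trdc, and Trac lies 71.7 kb after it.

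The libraries differed in which delta segment they held. Trdv4 had 31.7 CPM in the control (30.4 to 33.1) and 8.82 in the knockout (7.93 to 9.78), a log2 ratio of -1.85 (-2.01 to -1.69). Trdv2-2 went the other way, from 7.83 (7.18 to 8.52) to 25.6 (24.1 to 27.2), a log2 ratio of 1.71 (1.56 to 1.86). Trav22 was level at 9.40 and 10.1 CPM (0.10, -0.08 to 0.28). Macrophages had 0 UMIs of any variable segment in both libraries, with upper bounds of 85.5 CPM in the control and 15.8 CPM in the knockout. Among the named segments, only Trdv2-2 in the knockout had an NK level above its bound. The other zeros could not tell macrophages from NK cells. Cells with Trdc did not hold Trdv4 more often than cells without it: 4.37% against 6.73% in the control and 1.40% against 1.996% in the knockout. Reads of 3' tags do not show whether a segment was joined to a constant region.

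**Figure D5:**
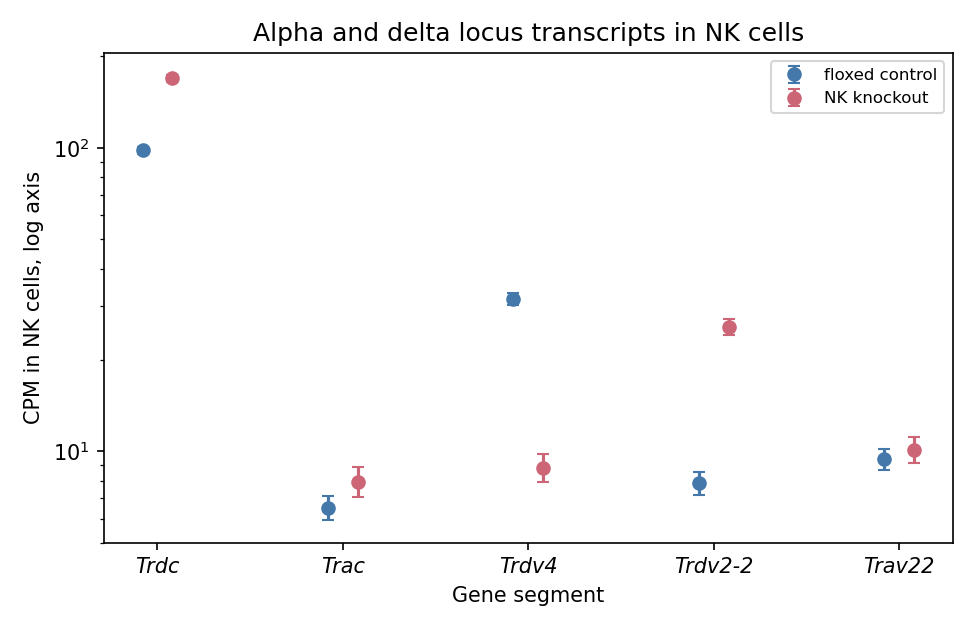
Level in CPM (vertical log axis) of Trdc, Trac and 3 variable segments of the joint alpha and delta locus in NK cells outside the T cell rule; blue is the control and red the knockout library, and bars are 95% exact Poisson intervals. Trdv4 is higher in the control library and Trdv2-2 in the knockout library.

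Levels in cells meeting the T cell rule were set beside those of NK cells, though 34 of the 59 and 91 of the 154 also met the NK rule. The rule that chose them used Cd3d, Cd3e and Trac, so their T cell levels, 753, 401 and 408 CPM in the control and 1028, 521 and 452 CPM in the knockout, are a description. Of the genes the rule did not use, Trbc2 was highest, at 1274 and 1904 CPM, followed in the control by Cd3g at 647 (574 to 728) and Trbc1 at 458 (397 to 527). In the knockout Cd3g had 922 (859 to 989) and Trbc1 915 (852 to 982), with overlapping intervals. The gamma regions were lowest, from 36.9 CPM for Tcrg-C1 in the control to 148 CPM for Tcrg-C2 in the knockout.

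Against NK cells outside the rule, Trbc1 differed least, with a log2 ratio of T cells over NK cells of 0.46 (0.25 to 0.66) in the control and 1.11 (1.01 to 1.22) in the knockout. Trbc2 had 2.88 (2.76 to 3.00) and 3.24 (3.16 to 3.32), and Cd3g 5.50 (5.31 to 5.70) and 4.68 (4.55 to 4.80). The gamma regions had 5.95 to 10.67, on 3 to 64 UMIs in NK cells. With a log2 ratio of at least 1 as the bound, 8 of the 9 genes were higher in T cells of both libraries, Trbc1 in the control being under it, beside 2.58% of 7368 measured genes (4.34% in the control and 3.75% in the knockout alone). Nothing is read from that count: the rule chose cells by Cd3d, Cd3e and Trac and removed such cells from the NK cells. None was lower, against 3.56% of genes in both libraries, 10.2% in the control and 6.61% in the knockout. Cd3e and the gamma regions count as measured there only because of their level in T cells, which leaves Cd3g and Trbc2 as genes higher in both libraries by neither route. After thinning, Trbc1 was held by 42.4% (29.6 to 55.9) and 51.7% (43.4 to 59.9) of T cells, close to the 46.4% and 51.6% of NK cells, whereas Trbc2 was held by 86.4% and 95.4%.

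Other T cell genes also had large ratios, though not all were larger than those of the gamma regions. They rest on few UMIs in NK cells outside the rule. Cd8b1 had 3 there in the control and 5 in the knockout, with intervals of 10.63 to 14.52 and 8.56 to 11.49. The largest ratios in the related lists, among genes with a UMI in both populations, were those of Cd8b1 (12.22), Sit1, Themis, Cd5 and Cd8a in the control and Cd8b1 (9.84), Themis, Cd6, Cd40lg and Cd5 in the knockout, genes of the CD8 coreceptor, of receptor signalling and of T cell surface proteins. Of the 17 signalling genes 6 were higher and 4 lower in control T cells, and 6 and 3 in knockout T cells, where 12 had been measured in the NK cell comparisons. Of 13 measured T lineage genes 10 and 9 were higher, while 6 of the 13 had been measured in the NK cell comparisons. Over all genes 4.34% and 3.75% were higher, and as the further genes of both lists passed only through their level in T cells, nothing is read from these counts. Trdc lay nearer to the level of NK cells, at 198 and 280 CPM in T cells against 98.0 and 169 CPM in NK cells, log2 ratios of 1.02 (0.69 to 1.32) and 0.73 (0.54 to 0.91). In the smaller set of T cells that did not meet the NK rule, 25 and 63 cells, Trbc1 had 512 and 987 CPM and Cd3g 859 and 1205 CPM.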

How the data were processed

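Per the labels, each genotype gave 1 library of 3' tags (10x Single Cell 3' v2). The authors deposited UMI counts per gene and barcode, not normalized. STAR, Cell Ranger 3.0.0, Seurat and the build GRCm39 are named in the submitters' processing notes, and the settings are not given in the sources used here. Positions and sequences came from GENCODE vM21 and RefSeq (GRCm38) and were matched by gene ID, so they are not in the labels' build.

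The control library held 69853026 UMIs in 11785 barcodes, the knockout library 42795121 in 10615. Barcodes with fewer than 500 genes or over 10% mitochondrial UMIs were removed, leaving 10928 and 10023. No doublet caller was run here. UMIs were summed per population and divided by their total (CPM). Intervals are exact Poisson, exact binomial (Clopper-Pearson) and conditional binomial, at 95%, for counting error only. No test was made, since each group is 1 library.

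Members and gene lists were chosen with earlier results of these data known. Besides the 9 genes, the text names the 5 related genes of largest ratio per comparison and the 3 genes most like each member. Of the signalling list 2 genes are not reported here. Ptger3, Trdc, Cd247 in the comparison of unevenness, and the variable segments were named outside that rule. The library ratio with its interval and bound, and the mean after thinning, were tested on simulated data. Those counts were Poisson, unlike the uneven counts of Trbc2, Cd3g and Cd3d, and the other steps were not tested in this way. The tools were matplotlib 3.10.9, pandas 2.3.3, scipy 1.17.1 and numpy 2.4.6 under Python 3.11.15.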

Additional observations from a re-analysis of the deposited data

How the results depend on the processing

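Counts of receptor genes past each bound were recomputed under other settings. Of 700 values for single genes, 542 stayed within the 95% interval of the value reported, 157 left it, and 1 that was past its bound changed sign: the Trac ratio of least over most mature tertile in the knockout, 0.9995, became -0.11 without cells of the T cell rule. In the control, where it was under the bound, it went from 0.14 to -0.51 there and to -0.11 with the score from cells not thinned. The number held by at least 1% of NK cells in both libraries was 5, and 2 at 500 UMIs per cell, a depth added after seeing the data. The number higher in the knockout was 5, but 3 with the NK rule at 5 UMIs, 2 without T cell rule cells, 8 with genes measured from 1 CPM and 9 from 1 UMI. Members of whose holders at least 90% lacked Cd3e in both libraries numbered 3, against 8 without T cell rule cells, where the rule itself removes Cd3e, and 5 at 1000 UMIs per cell. As Cd3e was rare in NK cells, its absence from most holders of a common gene is largely set in advance. The number higher in the least mature tertile of both libraries was 3, and 6 with genes measured from 1 CPM. Members whose unthinned NK share lay above the unthinned share of the macrophages, which were shallower, numbered 2. The number was 1 with unthinned B cells in place of macrophages, and 1 with all cells thinned to 500 UMIs. Where the construction of the setting does not show it, the cause was not tested. The count of genes at 10 CPM or more in both libraries stayed at 4 under the alternatives run. That of genes higher in T cells, 8, is largely fixed by the T cell rule and says nothing of stability. No paired analysis was possible because each group is 1 library. Depth limits what can be said of Cd3e, Trac and the gamma regions, which had few UMIs in NK cells, and of the 34 control macrophages.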
